A study of Mus musculus with 2 samples.

Results

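The Krt19 Serpina1e cells of the adult mouse vomeronasal organ (VNO) were a small epithelial population chosen by the counts of a few transcripts, and earlier work on the whole series had given them no cell type name. A cell was taken when it carried at least 5 unique molecules (UMIs) of Krt19 and at least 3 of Serpina1e, and stayed under 5 UMIs of Krt5, under 3 of Dmbt1 and under 10 of Cyp2a5 and Cyp2g1 together. Of the 10591 cells that held 200 to 9000 genes and at most 5% mitochondrial UMIs, 113 met these limits (1.07%, exact 95% binomial interval 0.880–1.28%, which covers counting error only). The share was 1.09% in library 1 (62 cells) and 1.04% in library 2 (51 cells), so the libraries differed by less than either interval.

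The series held 2 droplet libraries of whole VNO from wild-type C57BL/6J males at postnatal day 60, with no mutant, treated or younger group. Each library's protocol names 5 vomeronasal organs, dissociated and frozen before capture, and no animal can be followed in the counts. The libraries are therefore the only replicates here (n = 2), and the spread between them may be technical. The 113 cells held 753251 UMIs in library 1 and 524011 in library 2, with a median of 11092 UMIs (1146 to 24403) and 2836 genes a cell. None of their barcodes occurred in both libraries, against 3 barcodes among all kept cells, and 3 of them were called doublets, against 185 of all kept cells (1.75%).

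Against them stood 3 other groups cut by the same genes. The Krt5 cells (1499 cells, at least 5 Krt5 UMIs) carried the keratin of basal epithelial cells, the Dmbt1 cells (564 cells, at least 3 Dmbt1 UMIs) a secreted scavenger protein of glands and mucosae, and the Cyp2a5/Cyp2g1 cells (379 cells, at least 10 UMIs of both together) the nasal cytochromes that mark supporting cells. Each group stayed under the limits of the other genes and under 3 Serpina1e UMIs. Their median depth was 9438, 8850.5 and 20992 UMIs a cell, and the Dmbt1 cells differed most between libraries, with medians of 6124.5 and 16500 UMIs. In the clustering of all kept cells described below, 376 of the Dmbt1 cells lay in 1 cluster. Another 127 lay in a cluster with 220 cells of library 1 and 2 of library 2, so the 2 Dmbt1 sums held different mixes of cells. Levels are given as CPM, the UMIs of a gene in the summed cells of a group per 1000000 of their UMIs, with library 1 first.

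The VNO is a blind-ended tube. One side of its lumen carries the sensory epithelium with the vomeronasal sensory neurons (VSNs) and their supporting cells, and the opposite side a non-sensory epithelium with basal, secretory and ciliated cells, into which vomeronasal glands open. Epithelial layers of this kind are renewed from basal cells, which are held to the basement membrane by hemidesmosomes, while cells nearer the lumen are sealed by claudins and carry keratins of simple epithelia. Serpina1e belongs to the alpha-1-antitrypsin family of secreted protease inhibitors, best known from liver. Krt19 and Krt7 are keratins of glandular and stratifying epithelia, Sfn encodes the epithelial 14-3-3 sigma protein, Sptssb a small subunit of serine palmitoyltransferase, the entry enzyme of sphingolipid synthesis, and Dapl1 a small protein of epithelial differentiation.

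The promoters of 3 genes are shown so that the letters of their 5′ flank can be read beside the counts. Serpina1e is a gene of the rule. Sfn is the given marker with the most UMIs, although its level overlapped with that of Krt5 cells. Serpinb11, a serpin of the ovalbumin-like branch, is one of the transcripts higher than in all 3 other groups. Each runs 5′ to 3′ over the 250 bases before the RefSeq start on GRCm38.p6, the same assembly as mm10. Capitals mark matches on either strand to the Grainyhead motif AACCNGTT or to TGANTCA, a form of the AP-1 motif with any base allowed at its centre. The matches do not overlap here.
Serpina1e (chr12:103956898-103957147, minus strand): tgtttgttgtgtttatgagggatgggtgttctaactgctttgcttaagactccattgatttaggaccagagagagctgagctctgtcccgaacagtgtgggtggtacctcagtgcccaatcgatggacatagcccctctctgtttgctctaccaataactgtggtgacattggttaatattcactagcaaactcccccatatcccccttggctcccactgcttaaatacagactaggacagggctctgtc
Sfn (chr4:133602169-133602418, minus strand): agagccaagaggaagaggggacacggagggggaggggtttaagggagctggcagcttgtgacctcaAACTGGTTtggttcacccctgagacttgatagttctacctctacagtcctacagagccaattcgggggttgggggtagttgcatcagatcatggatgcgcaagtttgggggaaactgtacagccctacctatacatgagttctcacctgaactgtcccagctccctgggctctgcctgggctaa
Serpinb11 (chr1:107362064-107362313, plus strand): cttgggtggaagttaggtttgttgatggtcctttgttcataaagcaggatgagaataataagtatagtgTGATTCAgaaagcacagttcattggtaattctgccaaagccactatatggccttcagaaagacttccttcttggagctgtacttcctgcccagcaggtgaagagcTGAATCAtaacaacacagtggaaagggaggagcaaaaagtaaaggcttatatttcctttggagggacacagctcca
The Sfn flank held 1 Grainyhead match, starting 184 bases before the start, where 588 of 32851 promoters of this length held one (1.79%). The Serpinb11 flank held 2 matches to TGANTCA, starting 181 and 76 bases before its start, where 2217 of the 32851 promoters held at least one (6.75%). They read TGATTCA and TGAATCA, and so rest on the open central base. The Serpina1e flank held neither. These are matches of letters, and no binding was measured.

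The values that chose the cells are a description. Serpina1e reached 2121 and 2155 CPM in the Krt19 Serpina1e cells, with a median of 15 UMIs a cell (3 to 114), against 9.54 and 12.7 CPM in Krt5 cells, 7.11 and 1.67 in Dmbt1 cells and 4.73 and 5.8 in Cyp2a5/Cyp2g1 cells. Krt19 stood at 1948 and 1669.8 CPM (median 16 UMIs, 5 to 80), above the 595 and 552 CPM of Krt5 cells. The cut in Serpina1e fell in a sparse stretch: of the 309 cells that met the Krt19 and upper limits, 164 had no Serpina1e UMI, 23 had 1 and 9 had 2, while 3 cells had 3, 6 had 4 and 6 had 5. The cut in Krt19 was less clean, with 15 cells at 4 UMIs just outside and 8 cells at 5 just inside. The cut in Krt5 crossed a continuous range. Of the cells that met every other limit, 22 had 4 Krt5 UMIs and 21 had 5, and 126 cells in all were left out by Krt5 alone.

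Sequences nearly identical to Serpina1e exist in Serpina1a, Serpina1b, Serpina1c and Serpina1d, so the assignment within that family is uncertain. In the Krt19 Serpina1e cells the table gave no UMI to Serpina1a, Serpina1c or Serpina1d and 2 cells with a UMI to Serpina1b. Serpina1e itself lies at chr12:103946931-103958975 on the minus strand of mm10 in the GENCODE annotation, whose 5′ end lies upstream of the RefSeq start used for the flank above, and Krt19 at chr11:100140810-100148665, also minus.

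Of the other given markers, Krt7 and Sfn did not single these cells out from Krt5 cells. Krt7 stood at 458 and 468 CPM here and at 516 and 461 CPM in Krt5 cells, and Sfn at 6491 and 4282 against 4525 and 4144 CPM, so that the libraries of the 2 groups overlapped for both genes. Dapl1 overlapped as well, at 451 and 292 against 332 and 299 CPM. Sptssb was the exception among the 4, at 209.8 and 174 CPM here, 82.7 and 79.2 in Krt5 cells and 4.11 and 7.36 in Cyp2a5/Cyp2g1 cells. It was found in 79 of 113 cells (69.9%, 60.6–78.2%). It was not particular to them, since the cluster of 790 cells that held most of them, described below, stood at 168 CPM as a whole. All 4 were far lower in Dmbt1 cells, where Sptssb stood at 1.28 and 0.715 CPM. As background, Sptssb gave a UMI in 0.52% of the 1538 C1qa cells (macrophage marker, median 4927 UMIs).

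**Figure D1:**
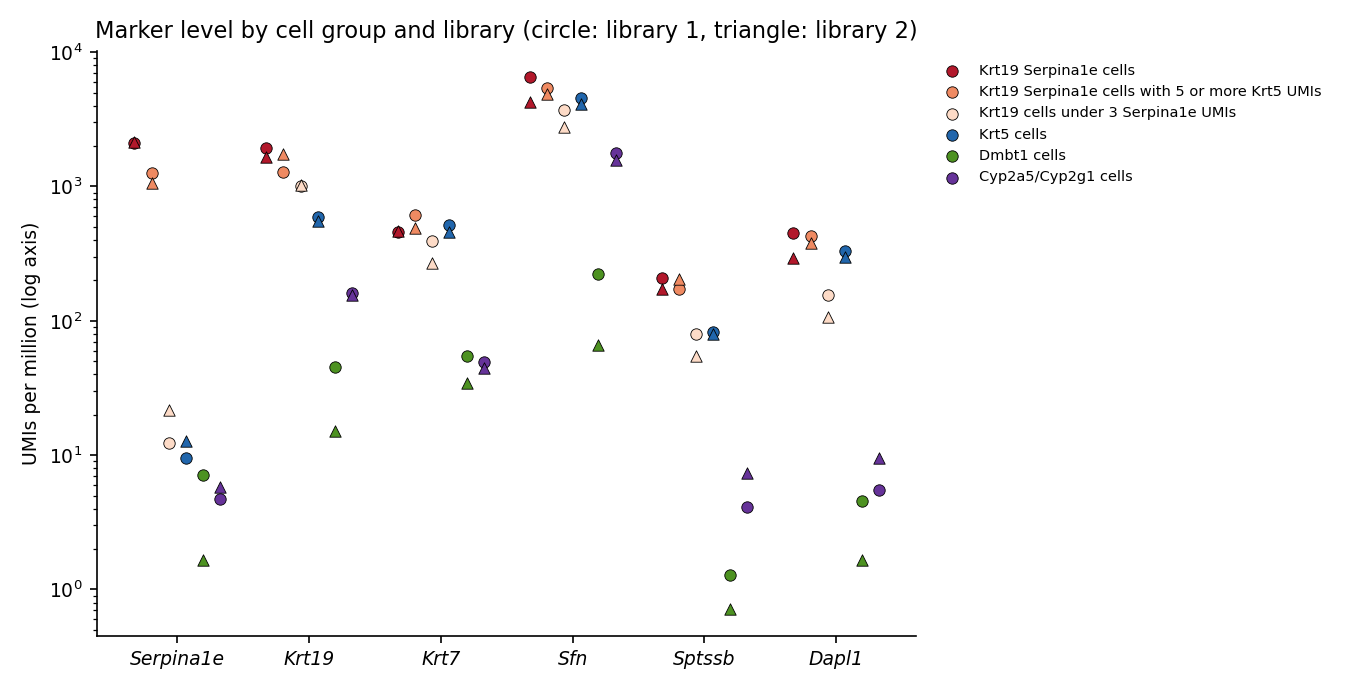
Level of the 6 given markers (CPM, log axis) in 6 groups of cells, with a circle for library 1 and a triangle for library 2. Serpina1e and Sptssb lie above their Krt5-cell levels in both libraries. Krt7, Sfn and Dapl1, taken over all cells of the rule, overlap with Krt5 cells.

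The epithelial part of the label held. Krt18 was found in all 113 cells, Krt8 in 110, Epcam in 108 and Cdh1 in 69. Omp, the marker of mature VSNs, gave a UMI in 6 cells (5.31%, 1.97–11.2%, and 4.76% after thinning each cell to 5000 UMIs, which 105 cells allowed). The share in C1qa cells was 3.97%, but those cells were taken with at least 5 C1qa UMIs and under 5 Omp UMIs. No Omp limit was set on the 113 cells, so these shares are not a like comparison. Of the 41 Omp UMIs in the 113 cells 19 lay in 1 cell and 97.6% in 5 cells. Neurod1 and Neurog1 gave 0 UMIs, as did Cd3d, Cd3e and Cd79a. For 0 of 113 cells a floor of 3 cells stands for a share of 2.65% with a UMI. This floor is not an exact interval, and it is no limit on cells that express these genes. Of the 5 tuft cell markers Pou2f3 gave 1 UMI and the rest 0. Of 6 club and goblet cell markers, Muc5ac, Muc5b and Scgb1a1 were at 0 UMIs and Spdef gave 2, while Reg3g, which is described below, carried the rest of the UMIs of that set (8228 and 5223 CPM summed). Whether these cells lined the non-sensory side of the lumen cannot be read from dissociated cells.

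Markers of other epithelial types were present below their own groups. The 5 basal markers (Krt5, Krt14, Trp63, Krt15, Col17a1) summed to 441 and 284 CPM against 4205 and 4393 CPM in Krt5 cells. The 6 gland markers summed to 499 and 529 CPM, near the 692 and 552 CPM of Krt5 cells and far under the 256444 and 235682 CPM of Dmbt1 cells. Lcn3, a secreted lipocalin, gave a UMI in 69% of Krt19 Serpina1e cells but also in 64.8% of C1qa cells (40% and 57.4% after thinning), so its presence was at background. All 3 macrophage markers were found, at 54.4 and 34.4 CPM summed, under the 131 and 230 CPM of Krt5 cells. The 4 fibroblast markers stood at 5.31 and 345 CPM, and 127 of the 130 Dcn UMIs came from 1 cell of library 2. The part of such cells in the differences below was not tested apart from the values without doublets.

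Among themselves the 113 cells were not uniform. In a clustering of all kept cells into 34 clusters, 91 of the 113 (80.5%, 55 of library 1 and 36 of library 2) fell into 1 cluster of 790 cells, shared with 361 Krt5 cells. Its leading genes included Serpina1e, Sprr2f, Sptssb and Reg3g. Only 11.5% of its cells were among the 113, and as a whole it stood at 652 CPM of Serpina1e, 168 of Sptssb, 4650 of Reg3g and 77.6 of 4833423E24Rik. A second set of 14 cells (4 and 10 by library) lay in a cluster of 153 cells led by AU040972, Clca3b, Gm19935 and Sntn, with the cilia genes Tmem212 and Ccdc153 among its leading genes. The remaining 8 were spread over 7 clusters and held all 3 called doublets. The median depth of the 3 sets was 11184, 4152 and 19022 UMIs. The cluster of the 14 had a median of 1025 and 1138 UMIs in the 2 libraries, against 6668 and 6649 over all kept cells, and is left without a name.

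Transcripts of motile cilia were concentrated in a few of these cells. With 14 cilia genes listed, among them Foxj1, the regulator of motile ciliogenesis, and the axonemal genes Dnah5 and Dynlrb2, 9 cells (3 in library 1 and 6 in library 2) held at least 3 of the 14, while 82 cells held none, 21 held 1 and 1 held 2. The 9 cells carried 382 of the 414 UMIs of the list (92.3%). None was called a doublet, and their median depth was 5871 UMIs against 11357.5 in the other 104. All 9 lay in the second cluster, which held 5 more of the 113 cells. Between the 9 and the other 104, Sfn stood at 1056 CPM against 5814, Dapl1 at 16.2 against 405, Krt5 at 0 of 9 cells against 70 of 104 cells, and Trp63 at 0 of 9 cells against 43 of 104. The 5 cells of the second cluster with fewer cilia genes also held 0 Dapl1 UMIs, and 0, 1, 1, 5 and 38 Sfn UMIs. Serpina1e stood at 3005 against 2091 CPM and Krt19 at 4435 against 1702. The rule asked every cell for at least 3 Serpina1e and 5 Krt19 UMIs, a floor that weighs more in the shallower 9 cells. It also kept Krt5 under 5 UMIs, so the rule shaped the values of all 3 genes. Hopx, a homeodomain-only cofactor, stood at 2550 CPM against 99.5. These contrasts between cells of the same libraries are descriptions, with no test.

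**Figure D2:**
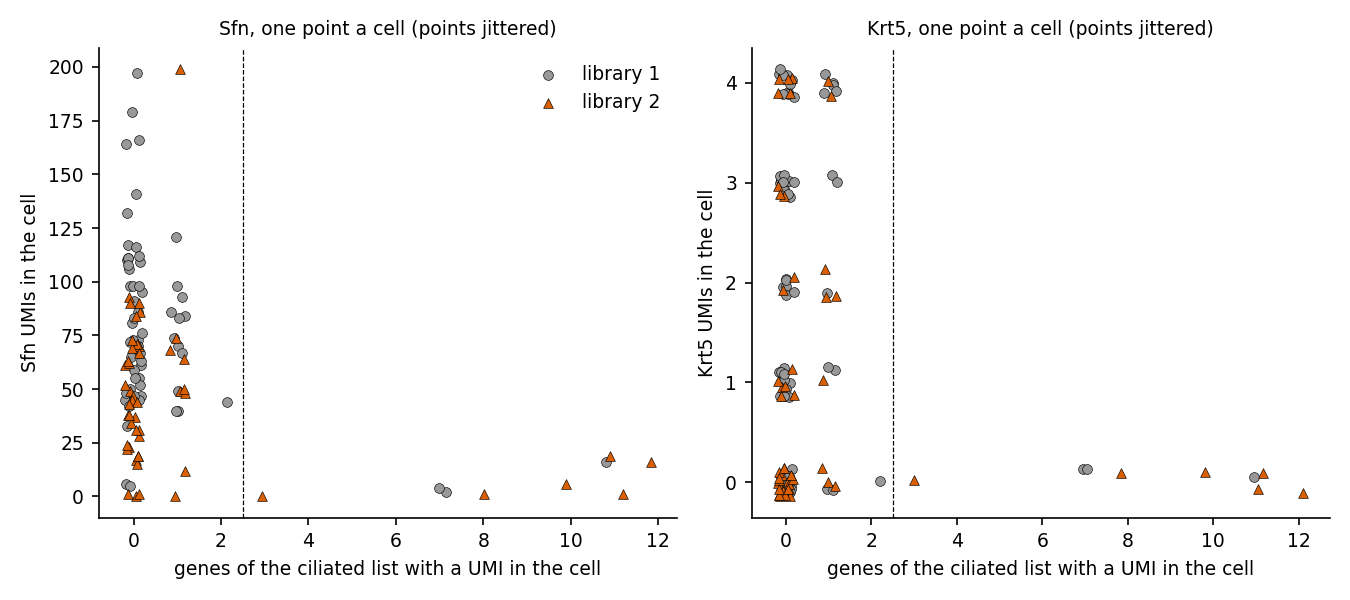
Each point is 1 of the 113 cells (circle library 1, triangle library 2, jittered); the x axis counts cilia genes with a UMI and the y axes give Sfn and Krt5 UMIs in the cell. The 9 cells right of the dashed line, at 3 or more cilia genes, carry no Krt5 UMI and have few Sfn UMIs. The rule kept Krt5 under 5 UMIs in every cell.

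Single cells also weighed on other transcripts. The Vmn1r39 vomeronasal receptor gave 124 UMIs, 122 of them in 1 cell of library 1. Ltf, which encodes the iron-binding defence protein lactoferrin, had 948 of its 2409 UMIs in 1 cell, although 89 of 113 cells carried it. Pigr, the receptor that carries IgA across epithelia, had 72.7% of its UMIs in 5 cells. For Krt14 and Krt15 the first 5 cells held 73.7% and 72.9%. In contrast Reg3g, a secreted lectin against Gram-positive bacteria, was found in 107 cells, and its first 5 cells held 26.7% of 8933 UMIs.

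The cells just outside the rule placed the 113 on a range. The 126 cells that met every limit but that of Krt5 had levels between those of the Krt19 Serpina1e cells and the Krt5 cells for several genes the rule did not use. Krt14 stood at 79.7 and 30.5 CPM in the 113, 551 and 528 in the 126 and 1734 and 1782 in Krt5 cells. Cldn7, a claudin of the lateral membrane, stood at 807 and 618, 543 and 549.6 and 152 and 116 CPM. The order was the same for Prdx6, a peroxiredoxin, at 11429 and 8513, 7463 and 7870.3 and 2332 and 2199 CPM, and for Serpinb11 at 133 and 179, 48.3 and 75.7 and 12.7 and 11.1 CPM. The 196 Krt19 cells with under 3 Serpina1e UMIs did not follow that order, with Cldn3, another claudin, at 539 and 565 CPM against 99.6 and 177 in the 113, and Omp at 111 and 214 CPM against 29.2 and 36.3. These values are a description without a test, since the rule cut through the range.

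**Figure D3:**
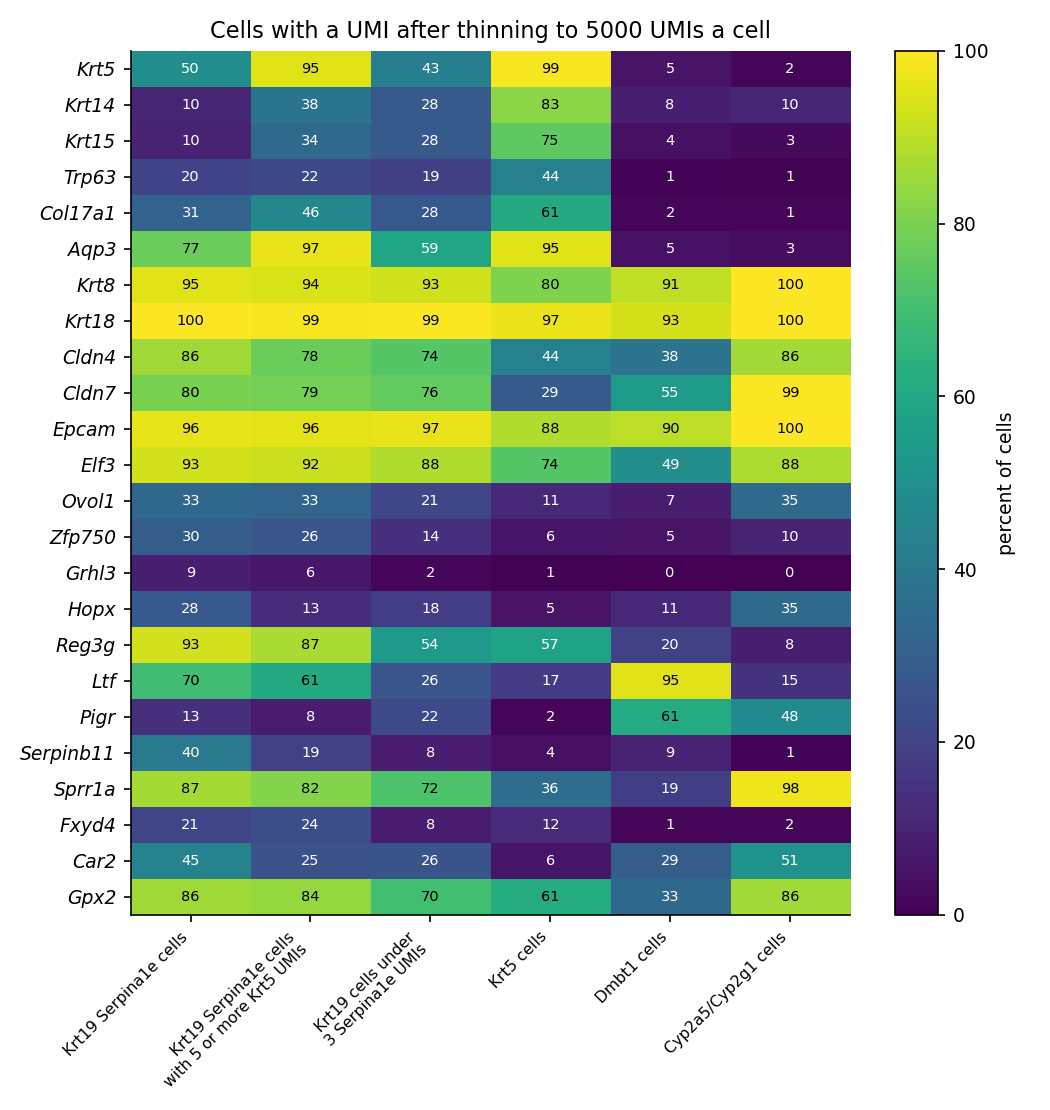
Percent of cells with at least 1 UMI of each gene after every cell was thinned to 5000 UMIs, for the Krt19 Serpina1e cells, the cells left out by Krt5 or by Serpina1e alone, and the 3 comparison groups. Krt14 falls from 82.7% of Krt5 cells to 38.4% of the cells left out by Krt5 and 10.5% of the Krt19 Serpina1e cells, and Serpinb11 rises from 3.93% to 19.2% and 40%.

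For the comparisons, UMIs were summed per library and group, and the 8 sums were fitted together with edgeR's quasi-likelihood test over 16014 genes, without the 6 genes of the rules. A gene was called at a Benjamini-Hochberg adjusted p under 0.05. Against Krt5 cells 629 genes were called (3.93% of those tested), 334 higher (2.09%) and 295 lower (1.84%) in the Krt19 Serpina1e cells; DESeq2, with its own scaling, called 463 higher and 254 lower. Against Dmbt1 cells the count was 2698 (16.8%), with 1415 higher (8.84%) and 1283 lower (8.01%), and against Cyp2a5/Cyp2g1 cells 4089 (25.5%), with 1919 higher (12.0%) and 2170 lower (13.6%). Counts of called list members below are to be read beside these shares of all genes. The median log2 fold change over all genes was -0.13, -0.07 and -0.16. Fold changes are on the TMM scale of edgeR, whose factors were 1.034 and 1.215 for the 113 cells, 1.012 and 1.055 for Krt5 cells, 0.639 and 0.577 for Dmbt1 cells and 1.39 and 1.46 for Cyp2a5/Cyp2g1 cells, so a CPM ratio against Dmbt1 cells exceeds the fitted fold and one against Cyp2a5/Cyp2g1 cells falls short of it. The 3 comparisons share the sums of the 113 cells and are not independent of each other, and because cells were picked by the rule genes, transcripts that vary with those genes had to differ in part.

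The comparison with Krt5 cells rested on the fewest calls. It gave 407 calls without the library 1 sum of the 113 cells, 246 without that of library 2, 372 without the 9 cells rich in cilia genes, and 384 with only the 91 cells of the main cluster. Against Dmbt1 cells these counts were 1790, 2034, 2681 and 2989, and against Cyp2a5/Cyp2g1 cells 2409, 3215, 4107 and 4339. Of 82 genes named by rule or as list examples that were called against Krt5 cells, 52 remained without library 1 and 41 without library 2, each in the same direction; where a named call was lost in this way, it is given below with its adjusted p.

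Keratins differed between the Krt19 Serpina1e cells and the Krt5 cells in both directions. Krt8 and Krt18, the keratin pair of simple epithelia, were higher than in Krt5 cells. Krt8 stood at 1825 and 1935 CPM against 703 and 667 CPM, a log2 fold change of 1.34 ± 0.16 (SE; adjusted p = 0.00122), and Krt18 at 3794 and 3343 against 1741 and 1794 CPM (0.91 ± 0.17, adjusted p = 0.0147). Neither was called against Dmbt1 cells, where the CPM were lower (1151 and 903 for Krt8) and the fitted changes were 0.00 ± 0.16 and 0.10 ± 0.17. Krt14 and Krt15, keratins of the basal layer, were lower than in Krt5 cells: Krt14 fell from 1734 and 1782 to 79.7 and 30.5 CPM (-5.02 ± 0.37, adjusted p = 4.62e-05) and Krt15 from 1066 and 1075 to 51.8 and 17.2 CPM (-4.96 ± 0.59). In both genes no library of one group came near the other. The rule had cut these groups apart by Krt5, so keratins that vary with Krt5 had to differ in part. Of the 13 keratins tested, 3 were higher and 5 lower than in Krt5 cells, with 4 and 5 without the 9 cells rich in cilia genes, and the median was -0.72 (-0.07 with the 3 genes at 0 UMIs taken at their bound).

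Krt6a, a keratin of activated and suprabasal keratinocytes, gave no UMI in the 113 cells against 411 UMIs in Krt5 cells, so it was at least 11.3-fold lower, with 3 counts over the 113 cells as the floor. Krt17, a stress and appendage keratin, was not called against Krt5 cells (2869 and 1901 against 3716 and 3672 CPM) but was higher than in Dmbt1 cells (107 and 26.7 CPM; 4.33 ± 0.48, adjusted p = 0.000116). Krt23 was the only keratin of the list called in all 3 comparisons, higher than in Krt5 cells (1.49 ± 0.19) and lower than in Dmbt1 (-0.91 ± 0.19) and Cyp2a5/Cyp2g1 cells (-2.13 ± 0.19), at 182 and 147 CPM. Over the list, 2 keratins were higher and 1 lower than in Dmbt1 cells, and 3 higher and 1 lower than in Cyp2a5/Cyp2g1 cells.

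Genes that hold basal cells to the basement membrane, listed together with other basal cell genes such as Trp63, Aqp3 and Ngfr, lay between. Of the 16 tested, 9 were lower and none higher than in Krt5 cells, while 11 were higher than in Dmbt1 cells and 14 than in Cyp2a5/Cyp2g1 cells, with medians of -1.08, 2.06 and 2.84. Trp63, the p63 regulator of basal identity, stood at 59.7 and 43.9 CPM, against 110.1 and 136 in Krt5 cells (-1.32 ± 0.22, adjusted p = 0.00738; 0.0807 without library 2), 1.46 and 0.953 in Dmbt1 cells and 0.411 and 0.892 in Cyp2a5/Cyp2g1 cells. Col17a1, a transmembrane collagen of hemidesmosomes, stood at 79.7 and 89.7 CPM, 165 and 206 in Krt5 cells and 2.37 and 2.62 in Dmbt1 cells, with log2 fold changes of -1.24 ± 0.19 and 4.21 ± 0.28. Bcam, a laminin receptor, followed the same order (-1.91 ± 0.19, 2.12 ± 0.24 and 2.51 ± 0.23). For these genes every library of the 113 cells was below the Krt5 cells and above the other 2 groups.

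Aqp3, a basolateral water and glycerol channel, and Plec, the plectin linker of keratin to hemidesmosomes, were the called members with the most UMIs, and their calls against Krt5 cells lay near the threshold. Aqp3 stood at 609 and 555 against 895 and 1062 CPM (-0.85 ± 0.20, adjusted p = 0.041), and its adjusted p was 0.0511 without library 1, 0.24 without library 2 and 0.0667 without the 9 cells rich in cilia genes. Plec (81 and 95.4 against 122 and 128 CPM; adjusted p = 0.0428) went to 0.123, 0.154 and 0.0753. The count of 9 lower members became 6 without the 9 cells and 6 in the main cluster alone.

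Tight junction genes went the other way against Krt5 cells: 9 of 24 tested were higher and none lower, with a median of 1.02 (7 higher without the 9 cells, 8 in the main cluster). Cldn7 stood at 807 and 618 CPM against 152 and 116 (2.31 ± 0.28, adjusted p = 0.00123) and Cldn3 at 99.6 and 177 against 21.7 and 17.1 (2.67 ± 0.24, adjusted p = 0.000244), with no overlap between libraries. Cldn4, a claudin that limits chloride and sodium leak, stood at 1109 and 698 against 324 and 259.7 CPM (1.54 ± 0.28), with an adjusted p of 0.0118 that became 0.0707 without library 1. The other 2 groups divided the claudins. Cldn4 was higher than in Dmbt1 cells (2.00 ± 0.29), while Cldn3 was lower than in both (-2.39 ± 0.22 and -2.37 ± 0.22), and Cldn7 was lower than in Cyp2a5/Cyp2g1 cells (-0.93 ± 0.27; adjusted p = 0.182 without library 2). The list as a whole gave 5 higher and 5 lower against Dmbt1 cells and 5 and 4 against Cyp2a5/Cyp2g1 cells.

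In the adhesion list of 22 adherens junction and desmosome genes, 2 were higher and 2 lower than in Krt5 cells, 7 and 1 against Dmbt1 cells, and 9 and 3 against Cyp2a5/Cyp2g1 cells. Epcam, the epithelial adhesion molecule that binds claudins, stood at 1298 and 1374 against 531 and 555 CPM in Krt5 cells (1.19 ± 0.15, adjusted p = 0.0019) and was not called against Dmbt1 cells (-0.04 ± 0.15).

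Of 23 airway secretory genes, 4 were higher and 1 lower than in Krt5 cells, and 4 higher without the 9 cells. Ltf stood at 2264 and 1343 CPM against 71.7 and 49.1 (4.81 ± 0.34, adjusted p = 3.51e-05) but far below Dmbt1 cells (17474 and 20660.5 CPM, -4.26 ± 0.33). Pigr stood at 123 and 116 CPM against 3.98 and 4.15 (4.77 ± 0.21), below the 291 and 292 CPM of Dmbt1 cells and not called against Cyp2a5/Cyp2g1 cells. In the 91 cells of the main cluster Pigr stood at 18.0 CPM and was lower than in Cyp2a5/Cyp2g1 cells (-2.87, adjusted p = 4.52e-06). Over all 113 cells both lay between Krt5 and Dmbt1 cells. Reg3g had a different order, with 8228 and 5219 CPM above Krt5 cells (1834 and 1681 CPM, 1.85 ± 0.40), Dmbt1 cells (197 and 250.2 CPM, 4.05 ± 0.44) and Cyp2a5/Cyp2g1 cells (504 and 1363 CPM, 3.24 ± 0.42). Its adjusted p against Krt5 cells was 0.0274, and 0.152 without library 1.

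Against Dmbt1 cells 11 of the 23 secretory genes were lower and 4 higher, and against Cyp2a5/Cyp2g1 cells 7 and 6. Wfdc2, a secreted whey-acidic-protein inhibitor, was high in all these epithelia and higher here, at 5237 and 5029 CPM, than in Dmbt1 cells (1301 and 1302 CPM, 1.10 ± 0.16). Lyz2, the lysozyme that macrophages also make, was lower than in Dmbt1 (-5.10 ± 0.64) and Cyp2a5/Cyp2g1 cells (-5.68 ± 0.63), and its call against Krt5 cells (adjusted p = 0.0391) was lost without library 1 (0.132), without library 2 (0.305) and without the 9 cells (0.0631). All 6 called lipocalin and odorant-binding genes of 7 tested were lower than in Dmbt1 cells, with Lcn3 at 145 and 132 CPM against 94983 and 102241, none was called against Krt5 cells, and 4 were higher than in Cyp2a5/Cyp2g1 cells. The call of Lcn3 among these 4 was lost with cells thinned to 5000 UMIs (0.54, adjusted p = 0.313).

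In the list of 37 mucosal defence and alarm genes, 4 were higher and 5 lower than in Krt5 cells (4 and 3 without the 9 cells), 10 and 9 against Dmbt1 cells, and 19 and 3 against Cyp2a5/Cyp2g1 cells. Cd24a, a surface glycoprotein of epithelial and progenitor cells, stood at 782 and 964 CPM against 411 and 398 in Krt5 cells (0.98 ± 0.16). Defb1, a constitutive defensin, was lower than in Krt5 cells, at 95.6 and 59.2 against 404 and 435 CPM (-2.50 ± 0.37, adjusted p = 0.00385; 0.0605 without library 2), and higher than in both other groups (4.11 ± 0.53 and 4.36 ± 0.48). Of the 18 MHC genes 1 was called against Krt5 cells: H2-Aa, a class II chain, was lower (17.3 and 7.63 against 80.2 and 108 CPM, adjusted p = 0.0299) and lost without library 1 (0.111), without library 2 (0.267) and in the main cluster alone (0.0779).

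Protease inhibitors, the family of the gene that names these cells, moved in both directions. Against Krt5 cells 4 of 27 were higher and 4 lower, with the same counts without the 9 cells and in the main cluster; against Dmbt1 cells 5 and 4, and against Cyp2a5/Cyp2g1 cells 9 and 5. Serpinb11 stood at 133 and 179 CPM, against 12.7 and 11.1 in Krt5 cells (3.58 ± 0.41, adjusted p = 0.000922), 21.5 and 19.1 in Dmbt1 cells (2.04 ± 0.40) and 2.26 and 12.9 in Cyp2a5/Cyp2g1 cells (4.71 ± 0.45). It was found in 75 of 113 cells, and no library of these 3 groups reached its level here, while the 139 other cells of the second cluster described above stood at 824 CPM. Wfdc18, a small whey-acidic-protein inhibitor, stood at 3515 and 3859 against 1025 and 871 CPM in Krt5 cells (1.84 ± 0.20), far under the 238826 and 288955 CPM of Dmbt1 cells. Among those lower than in Krt5 cells, Serpinb5 (maspin) stood at 15.9 and 21 against 73.6 and 67.7 CPM (-2.07 ± 0.26). Timp2, an inhibitor of matrix metalloproteinases, was also lower (-1.18 ± 0.20), with an adjusted p of 0.00776 and of 0.0614 and 0.0617 without library 1 or library 2.

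Among 22 epithelial proteases, 1 was higher and 2 lower than in Krt5 cells. Tmprss4, a membrane serine protease, stood at 34.5 and 43.9 against 4.1 and 3.32 CPM (3.25 ± 0.33, adjusted p = 0.000608), and was lower than in Cyp2a5/Cyp2g1 cells (-1.42 ± 0.25). Ctsl, the lysosomal cathepsin L, was lower than in Krt5 cells (-0.97 ± 0.20, adjusted p = 0.0262; 0.0773 without library 2). The counts against Dmbt1 and Cyp2a5/Cyp2g1 cells were 4 and 4, and 4 and 2, the latter near the 25.5% of all genes called there.

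Squamous and suprabasal genes did not rise together. Of 22 tested, 1 was higher and 5 lower than in Krt5 cells (median -0.71), whereas 10 were higher and 1 lower than in Dmbt1 cells and 10 higher and none lower than in Cyp2a5/Cyp2g1 cells. The one higher member, Sprr1a, a cornified envelope precursor also made by injured cells, stood at 2501 and 1584 against 469 and 439 CPM in Krt5 cells (2.08 ± 0.49, adjusted p = 0.0414), and the call was lost without library 1 (0.207), without library 2 (0.0827) and with DESeq2 (0.0642). Ly6d, a surface marker of stratified epithelium, differed from Krt5 cells by a log2 change of -0.23 ± 0.19, which was not called, and was higher than in both other groups (2.79 ± 0.21 and 6.10 ± 0.24). Lgals7, a galectin of stratified epithelium, stood at 5.31 and 7.63 against 164 and 179 CPM in Krt5 cells (-4.87 ± 0.29). Tgm2, tissue transglutaminase, was lower too (-3.15 ± 0.50, adjusted p = 0.00564; 0.0802 and 0.067 without library 1 or 2).

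Of 44 epithelial transcription factors, 6 were higher and 1 lower than in Krt5 cells, with the same counts without the 9 cells. Zfp750, a zinc finger factor of epidermal differentiation, stood at 106 and 76.3 CPM, against 17.4 and 16.3 in Krt5 cells, 12.2 and 15.2 in Dmbt1 cells and 22 and 24.1 in Cyp2a5/Cyp2g1 cells (2.36 ± 0.25, 1.90 ± 0.26 and 2.37 ± 0.25; adjusted p = 0.000714, 0.00045 and 6.52e-05). Ovol1, a repressor that promotes exit from the cell cycle in epithelia, stood at 154 and 105 against 30.3 and 34.6 CPM in Krt5 cells (1.93 ± 0.24) and was not called against Cyp2a5/Cyp2g1 cells (97.2 and 126 CPM). Hopx stood at 127 and 347 against 17.6 and 24.9 CPM (3.30 ± 0.32), with 2550 CPM in the 9 cells rich in cilia genes, of which 6 were of library 2. Without them its call against Cyp2a5/Cyp2g1 cells (adjusted p = 0.00312) went to 0.188, while those against the other groups remained.

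Elf3, an epithelial ETS factor, was higher than in all 3 groups, at 925 and 838 CPM (0.81 ± 0.17, 1.76 ± 0.18 and 1.17 ± 0.17), although the call against Krt5 cells (adjusted p = 0.0274) was lost without library 1 (0.101). Grhl3, a Grainyhead factor of barrier formation, gave 27 UMIs in 19 of the 113 cells (19.9 and 22.9 CPM) against 2.41 and 3.04 CPM in Krt5 cells, with an adjusted p of 0.012 and of 0.0664 and 0.0752 without library 1 or 2. With 1 UMI in Dmbt1 cells its ratio there was 205 (95% counting interval 33.7–8379). Xbp1, a factor of the secretory machinery, lay between Krt5 cells (0.98 ± 0.17) and Dmbt1 cells (-0.67 ± 0.16; adjusted p = 0.0797 without library 2; on plain CPM it stood above them, at 285 and 279 against 233 and 254). Bhlhe40, the lower one, differed by -0.80 ± 0.17 (adjusted p = 0.0265; 0.0861 and 0.104 without library 1 or 2). The list gave 17 higher and 9 lower against Dmbt1 cells and 26 and 2 against Cyp2a5/Cyp2g1 cells.

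Prdx6, Gpx2 and Pir were higher than in all 3 other groups. Prdx6, which reduces phospholipid hydroperoxides, was among the most abundant transcripts of the 113 cells, at 11429 and 8513 CPM and exceeded Krt5 cells (2332 and 2199 CPM, 2.04 ± 0.27), Dmbt1 cells (800.3 and 424 CPM, 3.18 ± 0.28) and Cyp2a5/Cyp2g1 cells (4129.8 and 4286 CPM, 1.61 ± 0.26). Gpx2, an epithelial glutathione peroxidase, stood at 981 and 1107 CPM (1.45 ± 0.22, 2.79 ± 0.23 and 1.27 ± 0.22), and Pir, an iron-binding pirin, at 285 and 393 CPM (1.55 ± 0.19, 3.64 ± 0.21 and 2.98 ± 0.20). For all of them the libraries of the 113 cells lay above every library of the other groups. Over the 43 xenobiotic and redox genes, 6 were higher and 4 lower than in Krt5 cells (3 and 5 without the 9 cells), 16 and 8 against Dmbt1 cells, and 15 and 7 against Cyp2a5/Cyp2g1 cells.

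Not all such enzymes were higher. Gstm1, a glutathione transferase, stood at 173 and 191 against 375 and 298 CPM in Krt5 cells (adjusted p = 0.0457), and the call was lost without library 1 (0.145) and without library 2 (0.25). Aldh3a1, which clears aldehydes, was lower as well (-1.76 ± 0.31, adjusted p = 0.00976; 0.096 and 0.0808 without library 1 or 2). Mgst1, a microsomal transferase, was higher (0.64 ± 0.15, adjusted p = 0.0433; 0.131 without library 1). Cbr2, a carbonyl reductase of airway cells, was not called against Krt5 cells and was higher than in the other 2 groups (1.24 ± 0.18 and 1.84 ± 0.18).

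Ion and water transport gave 4 higher and 1 lower of 28 against Krt5 cells, 9 and 6 against Dmbt1 cells, and 13 and 4 against Cyp2a5/Cyp2g1 cells. Car2, carbonic anhydrase, stood at 185 and 191 CPM against 14.8 and 14.2 in Krt5 cells (3.57 ± 0.19, adjusted p = 6.24e-06) and near the 199 and 187 CPM of Cyp2a5/Cyp2g1 cells, where it was not called. Fxyd4, a regulator of the sodium pump, stood at 169 and 290.1 CPM against 63.3 and 62.3 in Krt5 cells and 2.74 and 0.238 in Dmbt1 cells (1.72 ± 0.29 and 6.21 ± 0.45). Its adjusted p against Krt5 cells was 0.00829, and 0.131 without library 2 and 0.216 without the 9 cells. Aqp5, an apical water channel, was not called against Krt5 or Dmbt1 cells and was higher than in Cyp2a5/Cyp2g1 cells (684 and 433 against 7.4 and 26.3 CPM). Without the 9 cells the 4 higher members against Krt5 cells became 2, and in the main cluster 1. Of 26 sphingolipid genes other than Sptssb, 1 was higher and 1 lower than in Krt5 cells, and 4 and 4 against each of the other groups.

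Of 46 growth factors and receptors, 11 were lower and 1 higher than in Krt5 cells (10 and none without the 9 cells), against 14 higher and 4 lower relative to Dmbt1 cells and 16 and 9 relative to Cyp2a5/Cyp2g1 cells. Wnt4, a ligand of epithelial Wnt signalling, stood at 82.3 and 45.8 against 190.4 and 186 CPM (-1.60 ± 0.26, adjusted p = 0.00598), and Pdgfa, a growth factor for mesenchyme, at 109 and 124 against 249 and 258 CPM (-1.24 ± 0.20, adjusted p = 0.00547; 0.0597 without library 2). The one higher, Wnt5a, at 13.3 and 22.9 against 5.43 and 5.67 CPM, was lost without library 1 (adjusted p = 0.0714), without library 2 (0.298) and without the 9 cells (0.0903).

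The Notch pathway, the subject of the study in VSNs, gave 4 lower and none higher of 23 against Krt5 cells, and 4 without the 9 cells. Jag2, a ligand, stood at 22.6 and 40.1 against 73.2 and 88.6 CPM (-1.53 ± 0.28, adjusted p = 0.0112; 0.108 without library 1), and Ccnd1, the cyclin that Notch and other pathways drive, at 45.1 and 63 against 164 and 182 CPM (-1.81 ± 0.19, adjusted p = 0.00068). The receptor Notch1 stood at 46.5 and 55.3 CPM, and its target Hes1 at 791 and 937 CPM was not called against Krt5 cells (652 and 762 CPM) but was higher than in Dmbt1 (0.71 ± 0.15) and Cyp2a5/Cyp2g1 cells (2.08 ± 0.15). The list gave 6 higher and 2 lower against Dmbt1 cells and 7 and none against Cyp2a5/Cyp2g1 cells. Of 18 retinoid genes 3 were higher and 2 lower than in Krt5 cells. Against Dmbt1 cells 2 were higher and 3 lower, and against Cyp2a5/Cyp2g1 cells 4 and 1, where 16.8% and 25.5% of all genes were called. Among 20 cell division genes 1 was lower than in Krt5 cells, 3 were higher than in Dmbt1 cells, and 5 were higher and 1 lower than in Cyp2a5/Cyp2g1 cells. These counts lay near the shares of all genes called (3.93%, 16.8% and 25.5%).

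Immediate early and stress genes, which cells switch on within a short time of a stimulus, were not even across the groups. Of 28, 10 were lower and 1 higher than in Krt5 cells (7 lower without the 9 cells and 6 in the main cluster), while 16 were higher than in Dmbt1 cells and 22 than in Cyp2a5/Cyp2g1 cells. Fos stood at 4305 and 4027 CPM here, 8170.4 and 7466 in Krt5 cells, 1595 and 1379.6 in Dmbt1 cells and 1862 and 1757 in Cyp2a5/Cyp2g1 cells (-1.02 ± 0.17, 0.61 ± 0.17 and 1.55 ± 0.17; adjusted p against Dmbt1 cells 0.0706 without library 1). Junb had the same order, with an adjusted p against Krt5 cells of 0.0376 and of 0.0856 without library 2. Hspa5, the chaperone of the endoplasmic reticulum, was the higher one (802 and 1046 against 532 and 541 CPM, adjusted p = 0.0395; 0.122 without library 2).

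**Figure D4:**
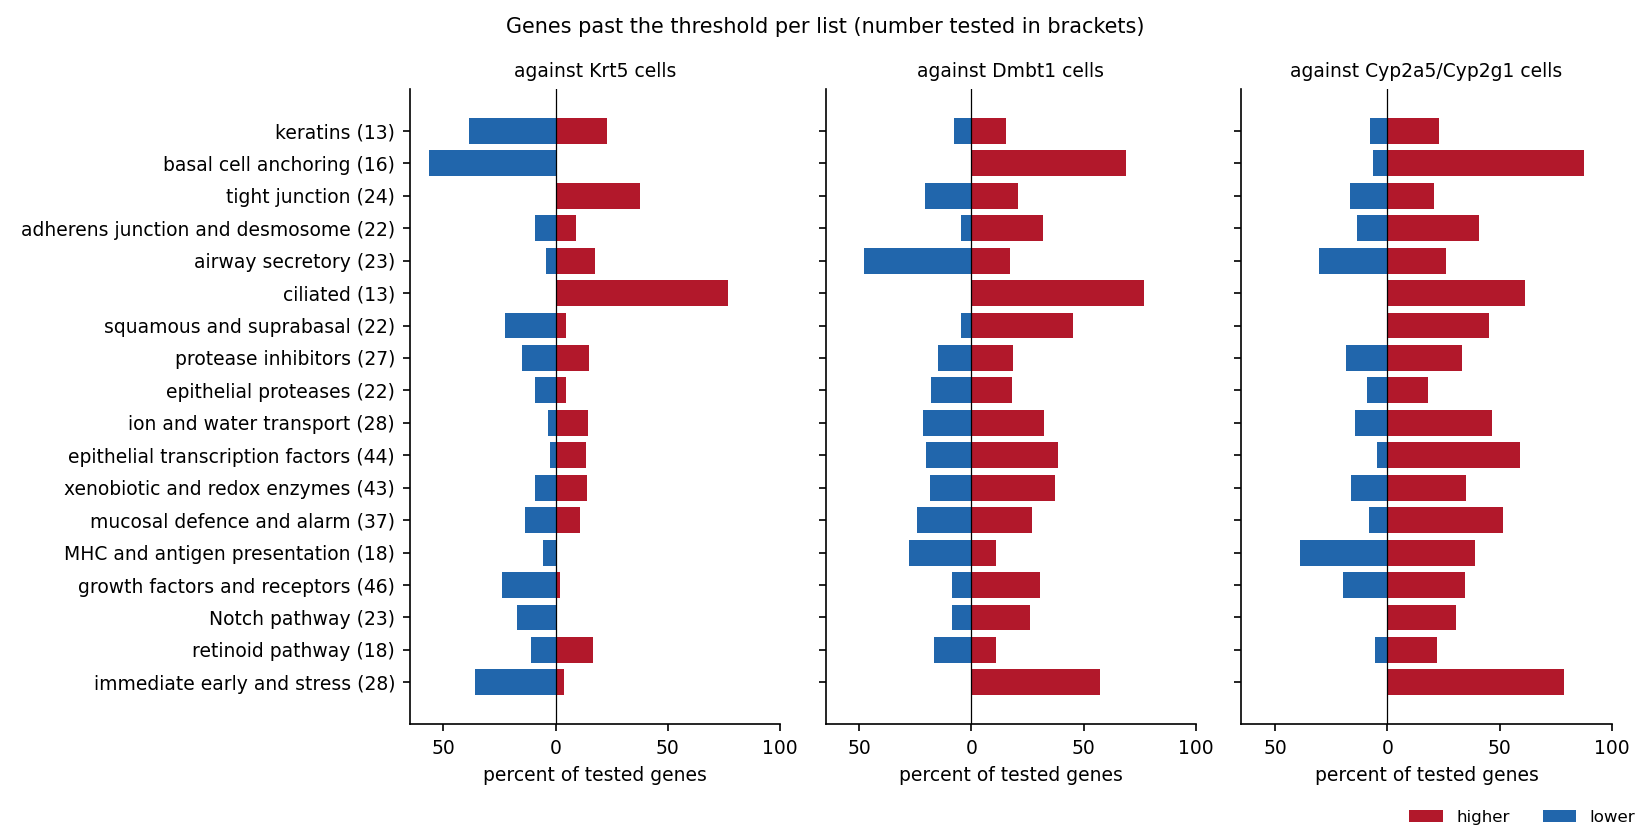
Percent of the tested genes of each list (number in brackets) that were called higher (right) or lower (left) in the Krt19 Serpina1e cells, in the 3 comparisons. The basal cell anchoring list, which also holds other basal cell genes such as Trp63 and Aqp3, is mostly lower against Krt5 cells and higher against the other groups. Tight junction genes are called only higher against Krt5 cells, and the cilia bar rests on 9 cells.

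The list of 13 tested cilia genes had 10 higher than in Krt5 cells, 10 than in Dmbt1 cells and 8 than in Cyp2a5/Cyp2g1 cells, and without the 9 cells described above these counts were 0, 1 and 0, and 3 genes were lower than in Cyp2a5/Cyp2g1 cells. Dynlrb2 went from 5.09 ± 0.70 to -0.69 against Krt5 cells. Since the 9 cells were picked by their UMIs of this same list, leaving them out had to lower these values. Against Krt5 cells the calls of Foxj1, Dynlrb2 and Dnah5 were also lost without library 2, which held most of the 9 cells (adjusted p = 0.054, 0.067 and 0.127). None of the 7 tuft cell and ionocyte genes tested was called in any comparison.

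Other cell types entered through few genes. Of 14 neuronal genes 1, the adhesion molecule Ncam1, was higher than in Krt5 cells and lost without the 9 cells, and 10 were lower than in Cyp2a5/Cyp2g1 cells, in which the 4 mature VSN markers summed to 2003 and 1926 CPM against 301 and 399 here. Omp stood at 29.2 and 36.3 CPM against 483 and 516 CPM there (-3.60 ± 0.33). Of 8 macrophage genes 6 were lower and 1 higher than in Dmbt1 cells, 1 lower than in Krt5 cells and 1 lower than in Cyp2a5/Cyp2g1 cells. Of 7 sustentacular genes other than the rule genes, 1 was higher than in Krt5 cells, 2 higher than in Dmbt1 cells, and 2 higher and 2 lower than in Cyp2a5/Cyp2g1 cells. No endothelial gene of 7 was called, and of 10 fibroblast and mural genes 3 were higher, against Cyp2a5/Cyp2g1 cells alone. Of 6 neutrophil and lymphocyte genes 2 and of 6 ensheathing genes 1 were lower than in Dmbt1 cells, with none called otherwise.

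Across the 3 comparisons 104 genes were higher and 18 lower each time in the Krt19 Serpina1e cells, 61 and 15 of them with at least 50 UMIs where they were higher. Ranked by the smallest of the 3 changes, the first 5 were AU040972, Clca3b, Sntn, Gm19935 and Adam8, and all 5 were concentrated in the cells rich in cilia genes. Clca3b came from 5 cells in all, AU040972 from 14 and Sntn from 10, a gene of the ciliary tip. Without the 9 cells AU040972 lost its call against Krt5 cells (adjusted p = 0.354) and Dmbt1 cells (0.267), and Clca3b (0.959), Gm19935 (0.893) and Adam8 (0.673) lost theirs against Krt5 cells. Without library 2 the calls against Krt5 cells were lost for all 5 (adjusted p = 0.0551, 0.517, 0.0525, 0.157 and 0.576).

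Next in rank was Flt1, a VEGF receptor that is better known from endothelium, found in 42 cells at 58.4 and 122 CPM against 10.5 and 15.5 in Krt5 cells (2.63 ± 0.51, adjusted p = 0.0158; 0.211 without library 2). Sult1d1, a sulfotransferase, came from 17 cells, with 59.6% of its UMIs in 5 of them, at 50.4 and 135 CPM (3.11 ± 0.35, 4.14 ± 0.42 and 2.57 ± 0.35). Serpinb11, Zfp750, Reg3g, Fxyd4, Prdx6, Pir and Hopx, given above, followed, with the uncharacterized 4833423E24Rik at 99.6 and 155 CPM against 41.2 and 41.2 in Krt5 cells (1.48 ± 0.23, adjusted p = 0.00458; 0.0808 without library 2) and 0.617 and 1.78 in Cyp2a5/Cyp2g1 cells.

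**Figure D5:**
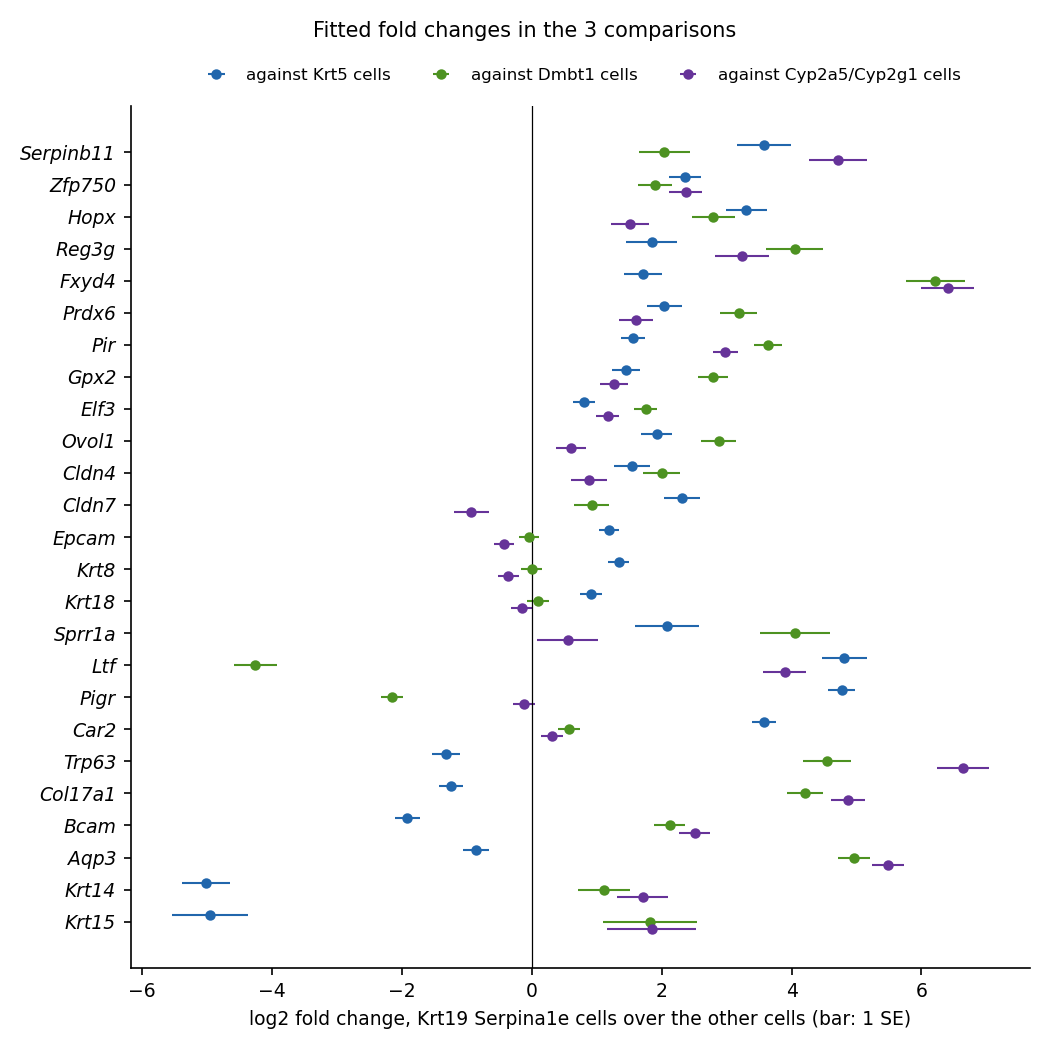
Fitted log2 fold change of the Krt19 Serpina1e cells over Krt5, Dmbt1 and Cyp2a5/Cyp2g1 cells for 25 genes, with bars of 1 SE from the fit over 2 libraries. Genes from Serpinb11 to Cldn4 lie right of 0 in all 3, Ltf and Pigr lie left of 0 against Dmbt1 cells, and Trp63, Col17a1, Bcam, Aqp3, Krt14 and Krt15 lie left of 0 against Krt5 cells only.

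The genes lower each time were mostly scarce in the 113 cells. Gxylt2, a xylosyltransferase that acts on Notch, gave 0 UMIs here and was at least 2.72-, 2.9- and 11.9-fold lower than in Krt5, Dmbt1 and Cyp2a5/Cyp2g1 cells. Dclk1, a kinase of tuft cells and neurons, was also at 0 and at least 2.39-, 3.78- and 4.87-fold lower. Cxcl10, an interferon-induced chemokine, gave 1 UMI, and Krt5 cells exceeded it by a ratio of 42.3 (95% counting interval 7.56–1674). Igfbp2 stood at 2.66 and 3.82 CPM against 108 and 127 in Krt5 cells and 623 and 523 in Cyp2a5/Cyp2g1 cells. The chemokine Ccl4 (5.31 and 1.91 CPM), Rhod (6.64 and 5.73 CPM), the matrix protein Thbs1 (11.9 and 9.54 CPM) and Golim4 (5.31 and 13.4 CPM) completed the 10 with Lyz2 and H2-Aa. Against Krt5 cells Gxylt2, Dclk1, Igfbp2, Rhod and Thbs1 lost their calls without library 1 (adjusted p = 0.155, 0.151, 0.151, 0.118 and 0.159) and without library 2 (0.177, 0.172, 0.188, 0.202 and 0.258), and Golim4 without library 1 (0.0714). Against Dmbt1 cells Igfbp2 and Rhod were lost without library 1 (0.191 and 0.0747) and without library 2 (0.142 and 0.0837), and Cxcl10 without library 1 (0.126). Against Cyp2a5/Cyp2g1 cells Ccl4 and Thbs1 were lost without library 1 (0.0908 and 0.164) and without library 2 (0.174 and 0.193). With doublets left out, the calls of Ccl4, H2-Aa and Lyz2 against Krt5 cells were lost (adjusted p = 0.734, 0.486 and 0.114), as was that of Ccl4 against Cyp2a5/Cyp2g1 cells (0.125).

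The largest differences in single comparisons were mostly of genes at 0 UMIs in the 113 cells. Besides Krt6a, the transcripts furthest below Krt5 cells were Cxcl14, a chemokine of squamous epithelium (at least 15.8-fold), Spink5, a protease inhibitor of stratified epithelium (at least 13-fold), Rrad (at least 11.2-fold) and Gpha2 (at least 9.3-fold), each at 0 UMIs here. The adjusted p of these 4 was 0.00679, 0.0109, 0.0149 and 0.0147, and 0.0586, 0.0828, 0.0973 and 0.0892 without library 1 and 0.0643, 0.0937, 0.115 and 0.103 without library 2. The largest rise over Krt5 cells, Sprr2f, came from 8 cells, with 71 UMIs against 1, a ratio of 863 (95% counting interval 149.9–34540.0), and was lost without library 2 (adjusted p = 0.356).

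Below Dmbt1 cells stood their secretory products, all at 0 UMIs here: Dcpp3 (at least 479-fold lower), the secretoglobins Scgb1b7 (at least 318-fold) and Scgb2b7 (at least 209-fold), 2310003L06Rik (at least 85.8-fold) and Ccl9 (at least 73.9-fold). The secretoglobins came from Dmbt1 cells of library 1, with 1314 and 2.62 CPM of Scgb1b7 in the 2 libraries and 865 and 2.38 CPM of Scgb2b7. Their calls were lost without the library 1 sum of the 113 cells (adjusted p = 0.182 and 0.198) and without that of library 2 (0.156 and 0.169). The largest rise, Vmn1r39, was the receptor of 1 cell and was lost without library 1 (adjusted p = 0.53) and without doublets (0.69).

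Below Cyp2a5/Cyp2g1 cells stood Bpifa1, a secreted lipid-binding defence protein of the upper airway (0 UMIs against 15211, at least 692-fold lower), the vomeronasal receptors Vmn1r184 (at least 200.1-fold), Vmn1r37 (at least 93-fold) and Vmn1r218 (at least 67.8-fold), and B3gnt5, a glycosyltransferase (at least 61.2-fold). The Bpifa1 call was lost with looser (adjusted p = 0.0824) and stricter thresholds (0.055). The 6 club and goblet markers, Bpifa1 among them, gave a UMI in 41 of 193 and 52 of 186 Cyp2a5/Cyp2g1 cells. Of all 379 such cells, 183 lay in a cluster that also held 66 cells taken for at least 5 Omp UMIs. Whether neurons supplied the receptor UMIs was not tested. Bpifa1 was at 0 in all 113 cells although it was among the leading genes of the cluster in which 91 of them lay.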

How the data were processed

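Single-cell RNA sequencing of dissociated whole VNO was deposited by the authors as 1 merged table of UMI counts, made per the labels with bcl2fastq and Cell Ranger 4 on mm10 (the study then used Seurat 3.2.3). Whether merging evened out the depth of the 2 libraries is not stated in the methods read here. The deposited counts held 108005626 and 95442231 UMIs in 12814 and 11270 barcodes, of which 5694 and 4897 cells were kept (200 to 9000 genes, at most 5% mitochondrial UMIs). Barcode suffixes gave the library.

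For each group of cells and each library the UMIs were added up. The 4 groups in 2 libraries were fitted together with edgeR 4.0.16 (R 4.3.3; TMM, quasi-likelihood test) over genes with at least 10 UMIs, without the 6 rule genes, and p-values were adjusted by Benjamini-Hochberg; errors of fold changes are SEs. Krt7, Sfn, Sptssb and Dapl1 are described only. DESeq2 1.42.0 was an alternative. Cells were clustered with Seurat 5.3.0 (2000 variable genes, 30 components, resolution 0.8), rule genes included. Doublets were called per library with Scrublet in scanpy 1.11.5 (expected rate 8%) and left out only as an alternative. Shares were also taken after thinning cells to 5000 UMIs. Intervals are exact binomial or counting intervals at 95% and, like floors of 3 counts over a group, cover counting error only. The test was also run on counts simulated from a profile shared by all groups with a common dispersion. That setting is simpler than these groups, so it does not show how the test holds here.

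The members and gene lists were chosen with earlier results of these data known. Named genes were the given markers, the called list members with the most UMIs, the first 15 higher and 10 lower in all 3 comparisons by smallest change, and the 5 largest changes per comparison and direction, the last 2 with the same sign in both libraries and at least 50 UMIs in the higher group; other genes named were chosen after their values were seen. A few genes are not reported here. The alternatives without cells rich in cilia genes, with the main cluster alone and with cells over 5% mitochondrial UMIs were added after the data were seen. A replicate number marks 1 shared capture per the labels, so groups are paired by library: deviations of the 113 cells correlated at 0.0769 with Krt5, -0.0708 with Dmbt1 and 0.238 with Cyp2a5/Cyp2g1 cells over 4968 genes.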

Additional observations from a re-analysis of the deposited data

Results flagged for a closer look

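A further 323 barcodes met the limits on Krt19, Serpina1e, Krt5, Dmbt1, Cyp2a5 and Cyp2g1 but held over 5% mitochondrial UMIs, 159 of library 1 and 164 of library 2, against 113 within the limit, and 189 of the 323 held at most 10%. They were drawn out because the report's comparisons do not use them.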

How the results depend on the processing

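The number of cells taken was 302 with a mitochondrial limit of 10%, 189 with only cells over 5% and up to 10%, 186 with looser and 15 with stricter thresholds. Calls against Krt5 cells numbered 1073 with no filter on low counts, 1003 with only the 2 groups compared, 246 to 407 without 1 library of the 113 cells, 2976 at 10%, 2354 at 5 to 10%, 1101 with looser and 390 with stricter thresholds, 372 without the cells rich in cilia genes, 384 in the main cluster and 320 after thinning. Against Dmbt1 cells they numbered 1790 to 2034 without 1 library, 4374 at 10%, 855 with stricter thresholds and 1122 after thinning, and against Cyp2a5/Cyp2g1 cells 2409 to 3215, 6666, 805 and 1841. With the replicate block, which pairs groups by library, they numbered 814, 2935 and 4362, and all named calls remained. Thinning and dropping a library lower the number of UMIs or sums behind each test; for the other counts the cause was not tested.

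Signs turned as follows, as log2 fold changes. Without the cells rich in cilia genes and in the main cluster, Dynlrb2 was -0.69 and -5.47 against Krt5, -1.68 and -6.57 against Dmbt1 and -4.19 and -9.08 against Cyp2a5/Cyp2g1 cells, Dnah5 was -2.97 and -2.91, -5.59 and -5.64, and -5.40 and -5.44, Foxj1 was -0.78 and -0.53 against Krt5 cells, and Clca3b was -0.59 and -5.48 and Gm19935 -0.77 and -0.62 against Dmbt1 cells. In the main cluster Clca3b was -4.35 against Krt5 and -4.72 against Cyp2a5/Cyp2g1 cells. At 10% and at 5 to 10% mitochondrial UMIs, Pigr was 0.67 and 0.95 and Ccl4 0.42 and 1.08 against Cyp2a5/Cyp2g1 cells, and B3gnt5 was 2.36 and 2.20 against Krt5 cells. At 5 to 10% alone, Xbp1 was 0.0078 and Omp -1.76 against Dmbt1 cells, Vmn1r37 was 0.36 against Cyp2a5/Cyp2g1 cells, and Vmn1r39 was -1.40, -6.43 and -6.79 in the 3 comparisons. Against Cyp2a5/Cyp2g1 cells Vmn1r39 ran from -4.27 without library 1 to 1.38 without library 2, and was -5.30 without doublets and -5.14 in the main cluster. With stricter thresholds Defb1 was -7.20 against Dmbt1 and -6.95 against Cyp2a5/Cyp2g1 cells, Pdgfa -0.41 and Jag2 -1.77 against Cyp2a5/Cyp2g1 cells, and Sprr2f -1.69 against Krt5 and -5.74 against Dmbt1 cells. With looser thresholds Igfbp2 was 0.55 and Cxcl10 0.052 against Dmbt1 cells, and Vmn1r184 was 3.40 and B3gnt5 3.75 against Krt5 cells. Leaving out cells picked by cilia genes had to lower Dynlrb2, Dnah5 and Foxj1, which are on that list. The causes of the other turns were not tested. Over all named genes and alternatives, 3198 called values stayed called in the same direction and 364 lost their call.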
